A study of Bos taurus with 6 samples.

Results

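The 6 genes of immune recognition and interferon response described here in muscle RNA of Angus and Luxi cattle are BOLA-DQA3, ULBP15, IFI47, IFITM1, IL17RB and SKAP1. They are 6 of the 232 genes in the authors' table of breed differences. They were picked by symbol, with their breed means in view, so the breed values below are a description without a test. RNA sequencing was run on muscle of 3 Angus beef cattle and 3 Chinese Luxi cattle, all 18 months old. Which muscle was taken, and from which sex, the labels do not say. They give no genotype and no treatment for either breed, so breed is the only stated difference between the groups.

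The 6 genes belong to different arms of immunity. BOLA-DQA3 encodes an alpha chain of a class II molecule of the bovine major histocompatibility complex (MHC), the proteins with which macrophages, dendritic cells and B cells show peptides to helper T cells. ULBP15 belongs to the UL16-binding proteins, relatives of MHC class I that are ligands of the activating receptor NKG2D on natural killer cells and some T cells. IFI47 is a GTPase and IFITM1 a small membrane protein, both induced by interferon in defence against microbes. IL17RB is the receptor chain for the cytokines IL-17B and IL-25, and SKAP1 is an adaptor that links the T cell receptor to integrin adhesion. Genes of the MHC and of the NKG2D ligand family are known for many near-identical copies and alleles, which matters for how reads are assigned to them.

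The comparison asks which genes differ in muscle expression between the breeds, and the members split evenly. BOLA-DQA3, IFI47 and ULBP15 were higher in Luxi, and IFITM1, IL17RB and SKAP1 were higher in Angus. Of all genes listed there, 63.4% had the higher mean in Angus and 36.6% in Luxi. The table holds 0.994% of the 23345 genes that the authors tested, 0.63% with the higher mean in Angus and 0.364% in Luxi, the number tested being worked back from their p-values and false discovery rates (FDR). Listed genes had a deposited FDR of at most 9.67e-04 and a ratio of at least 2-fold, and SKAP1, with a deposited FDR of 0.000791, was the member nearest to that limit. The deposited values are means over the 3 libraries of a breed, in reads and in RPKM, which is reads scaled to gene length and to the library's total. Reads in single libraries were recovered from these means, and the libraries are called the deepest, the middle and the shallowest of their breed, since none of them can be tied to a single animal. The recovered depths were 5429318 to 5736365 reads in Angus and 5799075 to 6047227 reads in Luxi. Reads are fixed in all 6 libraries for 4 members, and BOLA-DQA3 and IFI47 have 20 and 4 possible splits of their Luxi reads.

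**Figure D1:**
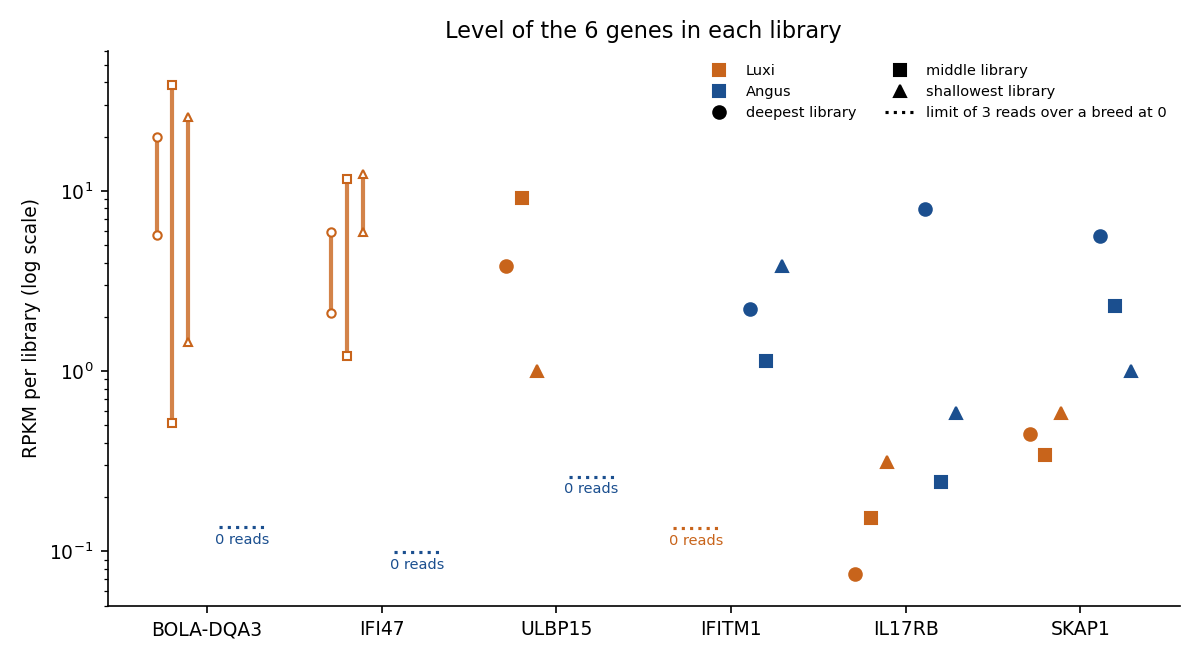
RPKM of the 6 genes in each recovered library on a log scale, Luxi in orange and Angus in blue, with the library as the symbol. Vertical bars with open symbols span all possible splits of the reads, and dotted lines mark the limit of 3 reads over a breed with 0 reads. These lines pool the 3 libraries of a breed, so the limit for a single library at 0 reads lies higher. Bars and points of the breed with reads lie above the dotted limit in 4 genes, those of SKAP1 do not overlap between the breeds, and those of IL17RB do.

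A count of 0 in 1 breed was found in 4 of the 6 members, 3 of them at 0 in Angus and 1 at 0 in Luxi. Among all listed genes 20.3% were at 0 in 1 breed, 9.48% in Angus and 10.8% in Luxi. Where a breed had 0 reads, up to 3 reads over its 3 libraries remain possible, which is 0.179 RPM in Angus and 0.169 RPM in Luxi, RPM being a library's reads for a gene scaled to a total of 1e6 reads. Fold differences against such a breed are therefore lower bounds against that limit. These limits cover counting error only.

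BOLA-DQA3 (gene identifier 282536) had the most reads of any listed gene with a symbol that was at 0 in Angus. It averaged 118.7 reads and 15.3 RPKM in Luxi, against 0 reads in each of the 3 Angus libraries, in the authors' means. The Luxi level was at least 112-fold higher than the Angus limit of 0.137 RPKM. Its 356 Luxi reads correspond to 20.1 RPM, with an exact Poisson 95% interval of 18.04 to 22.3 for counting error only. The deepest Luxi library held 45 to 157 of these reads, the middle one 4 to 300 and the shallowest 11 to 195, over all 20 splits. No split left a Luxi library without reads, and 19 of the 20 gave every Luxi library at least 10. All Luxi libraries thus lay above all Angus libraries, while the spread within Luxi was not determined. The library with most reads held between 34.6% and 84.3% of them, and it was the middle one in 13 splits and the shallowest in 7. Without the middle Luxi library the Luxi level was 26.1-fold to 166-fold above the Angus limit. It was 74.3-fold to 163-fold above it without the shallowest Luxi library, and 73.7-fold to 75.8-fold without 1 Angus library, where fewer reads raise the limit. In bulk muscle, fewer cells that express a gene and less RNA per cell cannot be told apart.

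IFI47 (gene identifier 521987) followed BOLA-DQA3 in reads among the genes with a symbol at 0 in Angus. It averaged 69.7 reads and 6.55 RPKM in Luxi and 0 reads in each Angus library, in the authors' means, so the Luxi level was at least 66.1-fold higher than the Angus limit of 0.0990 RPKM. The 4 possible splits gave the deepest Luxi library 23 to 65 of the 209 reads, the middle one 13 to 124 and the shallowest 62 to 131. Every Luxi library therefore held at least 13 reads, the largest share of 1 library lay between 41.6% and 62.7%, and the breeds did not overlap. The bound ran from 36.2-fold without the shallowest Luxi library to 93.0-fold without the middle one, each the extreme over the splits, and was 43.5-fold to 44.7-fold without an Angus library, where fewer reads raise the limit. A list of 12 interferon-inducible GTPases and guanylate-binding proteins was chosen, like the members, with earlier results of these data known. IFI47 was the only one of them listed as different. Listed genes make up 0.994% of all genes tested, so this says nothing on the rest of the list.

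ULBP15 (gene identifier 786883) was the lowest in reads of the Luxi-higher members. It averaged 19 reads and 4.65 RPKM in Luxi and 0 reads in Angus, in the authors' means. The deepest, middle and shallowest Luxi libraries held 16, 37 and 4 reads, or 3.84, 9.12 and 1.00 RPKM. The middle library was thus 9.11-fold above the shallowest after scaling to depth, while every Luxi library was above the 3 Angus libraries at 0 reads. The mean was 3.21 ± 2.84 RPM (SD, n = 3 libraries), at least 17.9-fold above the Angus limit. Without the middle Luxi library, which held 64.9% of the reads, the bound was 9.31-fold. It was 11.8-fold to 12.1-fold without 1 Angus library. Among the 22 listed genes at 0 in Angus, ULBP15 ranked 19 by reads and 11 by RPKM, its sequence being 689 bases long.

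IFITM1 (gene identifier 353510) was the member at 0 in Luxi. It averaged 16.7 reads and 2.40 RPKM in Angus, in the authors' means, with reads split 16, 8 and 26 from the deepest Angus library to the shallowest. These are 2.22, 1.14 and 3.82 RPKM, so the Angus libraries differed by up to 3.34-fold and all lay above the Luxi libraries at 0 reads. The mean of 3.004 ± 1.69 RPM (SD, n = 3 libraries) was at least 17.8-fold above the Luxi limit, and the bound was 12.5-fold without the shallowest Angus library and 11.7-fold to 11.95-fold without 1 Luxi library. IFITM1 had the fewest reads of the 16 genes with a symbol at 0 in Luxi. A list of 36 interferon-induced genes, chosen in the same way, held ISG15, the OAS genes and the IFIT genes. IFITM1 was the only one of the 36 listed as different, against 0.994% of all genes tested. The levels of the others were not analysed here. IFI47 and IFITM1, both interferon-induced, were at 0 in opposite breeds.

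**Figure D2:**
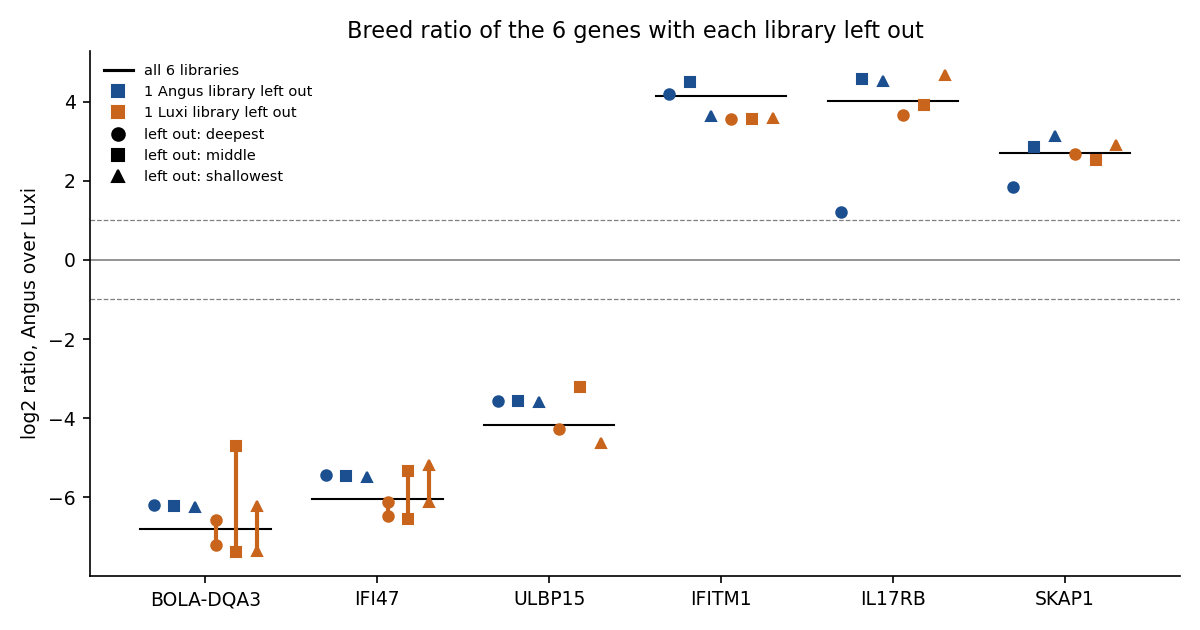
Log2 ratio of Angus over Luxi for the 6 genes with all libraries (black line) and with 1 library left out (Angus in blue, Luxi in orange, symbol for the library). Vertical bars span all possible splits, dashed lines mark a ratio of 2-fold, and a breed at 0 is set to the limit of 3 reads. All values stay outside the dashed lines, and IL17RB without the deepest Angus library comes closest to them at 1.20.

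IL17RB (gene identifier 533605) was above 0 in both breeds but came mainly from 1 Angus library. The authors' means were 2.93 RPKM in Angus and 0.180 RPKM in Luxi, a ratio of 16.3-fold. From the deepest library to the shallowest, reads were 101, 3 and 7 in Angus, against 1, 2 and 4 in Luxi. The deepest Angus library was at 7.96 RPKM, and the other 5 libraries lay between 0.0748 and 0.583 RPKM. The middle Angus library, at 0.243 RPKM, was below the shallowest Luxi library at 0.312 RPKM, so the breeds overlapped. The Angus mean was 6.48 ± 9.65 RPM and the Luxi mean 0.398 ± 0.267 (SD, n = 3 libraries each), a difference smaller than the Angus spread. Without the deepest Angus library, which held 91.0% of the Angus reads, the ratio was 2.29-fold, and without the shallowest Luxi library it was 25.7-fold. The 7 Luxi reads alone leave an exact Poisson 95% interval of 0.0717 to 0.368 RPKM for the Luxi level. No other gene of the IL-17 family and its receptors, a list of 13, was listed, where 0.994% of all genes tested are listed.

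SKAP1 (gene identifier 506769) was higher in every Angus library than in every Luxi library. The authors' means were 2.99 RPKM in Angus and 0.458 RPKM in Luxi, a ratio of 6.52-fold. The Angus libraries held 48, 19 and 8 reads, or 5.66, 2.30 and 0.996 RPKM, from deepest to shallowest. The Luxi libraries held 4, 3 and 5 reads, or 0.447, 0.344 and 0.583 RPKM. The lowest Angus library was thus above the highest Luxi library by few reads, while the Angus libraries differed among themselves by up to 5.68-fold. The Angus mean was 4.42 ± 3.56 RPM and the Luxi mean 0.678 ± 0.177 (SD, n = 3 libraries each). Without the deepest Angus library the ratio was 3.60-fold. A list of 15 genes of T cell receptor signalling held LCK, ZAP70, LAT and the close relative SKAP2. SKAP1 was the only one of the 15 listed as different, against 0.994% of all genes tested.

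The libraries of the breeds did not overlap for 5 of the 6 members, IL17RB being the exception. Among the 123 listed genes for which this was determined, 52.8% did not overlap. All 6 members stayed at least 2-fold different whichever library was left out, as did 56.6% of the 136 listed genes for which this was determined. At a stricter 4-fold, 4 members stayed, the 4 at 0 in 1 breed, against 21.8% of 220 listed genes. Of all listed genes 20.3% were at 0 in 1 breed, against 4 of the 6 members. For a gene at 0 in 1 breed, reads in every library of the other breed already mean no overlap. Its ratio is also a bound set by the limit, so the shares over all listed genes are not a like background. Since the members were chosen for their breed difference, these counts describe them and test nothing.

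**Figure D3:**
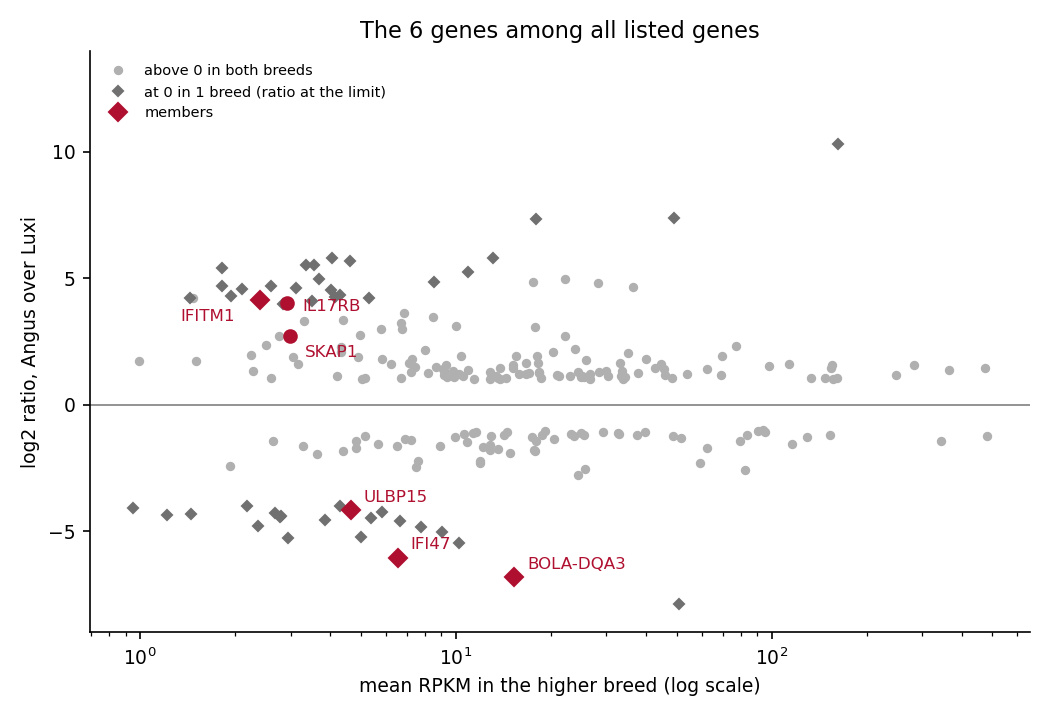
Log2 ratio of Angus over Luxi against mean RPKM in the higher breed (log axis) for all listed genes. Members are red and labelled, grey points are genes above 0 in both breeds, and diamonds are genes at 0 in 1 breed, with the ratio at the limit of 3 reads. The 6 members lie between 2.40 and 15.3 RPKM, all but BOLA-DQA3 below the median of the listed genes at 12.8 RPKM.

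All members but BOLA-DQA3 were below the median level of the listed genes. Their median in the higher breed was 3.82 RPKM against 12.8 RPKM over all listed genes, and their median absolute log2 ratio, with breeds at 0 set to the limit, was 4.16 against 1.61. The latter median was 4.63 over listed genes at 0 in 1 breed, as 4 of the members are, and 1.41 over those above 0 in both. By mean RPKM in the higher breed the order was BOLA-DQA3 (15.3), IFI47 (6.55), ULBP15 (4.65), SKAP1 (2.99), IL17RB (2.93) and IFITM1 (2.40). From IFI47 down, the single libraries of neighbouring genes overlapped, so the order does not rank them beyond the spread between libraries. For BOLA-DQA3 against IFI47 this was not determined. By absolute log2 ratio IL17RB ranked 6 and SKAP1 ranked 19 of the 122 genes above 0 in both breeds and higher in Angus. The genes with a symbol nearest to SKAP1 in ratio over the 2 breed means were TMEM98, 0.01 higher on the log2 scale, and L1CAM, 0.34 lower. Nearest to IL17RB were LOC785805, 0.21 higher, and WISP2, 0.40 lower. Among genes with a symbol at 0 in the same breed, SULT1C4 and CDH22, with 20.3 and 18 mean reads in Luxi, stood directly above and below ULBP15, LOC100335807 stood below IFI47 with 41 mean reads, and TRMT12 stood above IFITM1 with 17.7 mean reads in Angus.

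Other listed genes named for MHC proteins went in both directions. The authors' table holds 3 clusters of expressed sequence tags (ESTs, short cDNA reads grouped by overlap) whose deposited protein match is an MHC class I antigen, the molecules that show peptides to cytotoxic T cells. One cluster averaged 7.75 RPKM in Luxi, with 25, 44 and 21 reads from the deepest to the shallowest library, and 0 reads in Angus, at least 28.3-fold higher than the Angus limit. Another averaged 10.9 RPKM in Angus, with 66 or 67 reads in the deepest library, 2 to 4 in the middle one and 40 or 41 in the shallowest, and 0 reads in Luxi, at least 38.6-fold higher than the Luxi limit. These clusters thus repeat the pattern of BOLA-DQA3 in opposite directions. The remaining cluster had authors' means of 22.2 RPKM for Angus against 3.35 for Luxi, a ratio of 6.63-fold, and the shallowest Angus library held 104 to 160 of its Angus reads, without which its log2 ratio went from 2.73 to between 1.85 and 2.54.

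LOC786033, described by the authors as MHC class I-like, had authors' means of 4.39 RPKM for Angus against 0.432 for Luxi, a ratio of 10.2-fold. Reads from deepest to shallowest were 6, 96 and 3 in Angus, against 5, 4 and 2 in Luxi, so 91.4% of the Angus reads came from the middle library and the breeds overlapped. Without that library its log2 ratio of Angus over Luxi was 0.37. BOLA-DQA3 was the only listed gene of 18 in the list of MHC class II and antigen presentation, which also held BOLA-DRA, CD74 and CIITA, and ULBP15 the only one of 24 in the list of MHC class I and NKG2D ligands. Over all genes tested, 0.994% are listed.

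**Figure D4:**
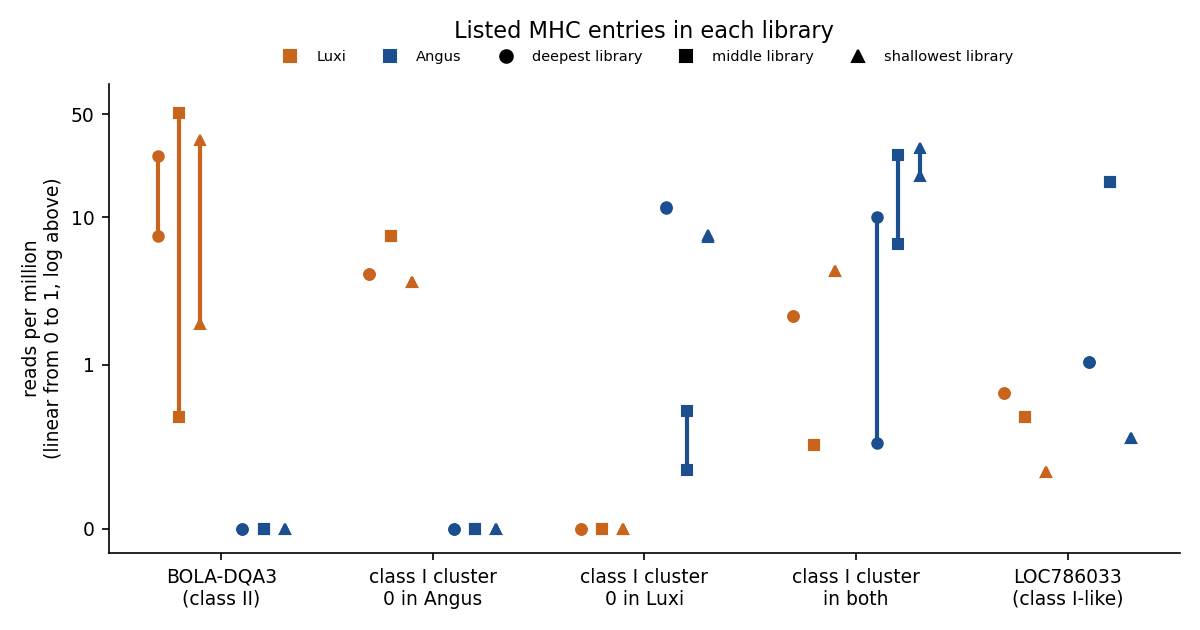
RPM in each recovered library for BOLA-DQA3 and the 4 listed MHC class I entries, Luxi in orange and Angus in blue, on an axis that is linear from 0 to 1 and logarithmic above. Bars span all possible splits of the reads. BOLA-DQA3 and 1 class I cluster sit at 0 in all Angus libraries, and another class I cluster sits at 0 in all Luxi libraries.

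Whether a count of 0 reflects the breed's gene copies and alleles or its RNA cannot be told apart in these data, which hold neither read sequences nor the rule for reads that match several genes. Of the 6 gene identifiers, 4 are in the RefSeq gene table of assembly ARS-UCD2.0, and those of BOLA-DQA3 and ULBP15 are not. Over all listed genes with an identifier, 15 of 163 have no entry there. The table names 4 other BOLA-DQ genes and 5 other ULBP genes, 3 of the latter not placed on a chromosome, and none of these is listed as different. IFITM1 stands directly beside LOC777594, a gene with the synonym IFITM3, and of the 6 genes of that family there, by symbol or synonym, it alone is listed. The values of BOLA-DQA3, ULBP15 and IFITM1 are therefore uncertain to the extent that reads were shared with such relatives. Relatives of IFI47 were not looked up there, so the same may hold for its values. Of the 5 genes on each side of IFI47, IFITM1, IL17RB and SKAP1 in that table, 0 are listed, where 0.994% of all genes tested are listed.

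The members were set beside markers of the immune cells that muscle can hold. Of 62 markers of T and natural killer cells, B and plasma cells, macrophages and dendritic cells, and neutrophils, 0 are listed as different, and their levels were not analysed here. Listed genes make up only 0.994% of all genes tested, so 0 of 62 is no result on the amount of these cells. Of 11 mast cell markers, TPSB1, CPA3 and KIT are listed, all higher in Angus, at 10.05-fold, 4.83-fold and 3.87-fold. Their Angus reads came mainly from the deepest library, with 51, 4 and 12 for TPSB1, 77, 10 and 32 for CPA3, and 153 or 154, 12 to 14 and 30 or 31 for KIT. Luxi reads in the same order were 4, 1 and 2 for TPSB1, 15, 4 and 7 for CPA3, and 14, 27 and 12 for KIT, so the breeds overlapped for CPA3 and KIT. For TPSB1 the middle Angus and the deepest Luxi library both held 4 reads, and only scaling to depth set them apart, at 0.717 against 0.661 RPM. Leaving out the deepest Angus library took their log2 ratios (Angus over Luxi) from 3.33 to 1.90 for TPSB1, from 2.27 to 1.40 for CPA3 and from 1.95 to between 0.39 and 0.43 for KIT. Of 15 skeletal muscle markers MYH4 and MYL3 are listed, at 28.3 and 365 RPKM in Angus and 1.00 and 139 RPKM in Luxi. Their splits over libraries were not determined, and with the middle Angus library left out their log2 ratios ran, over all splits, from 0.55 to 5.40 for MYH4 and from 0.099 to 1.97 for MYL3.

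Some further listed genes with an immune description, though not all, had most of their Angus reads in the same library as IL17RB and SKAP1. LOC100141470, similar to an immunoglobulin kappa chain of B and plasma cells, held 61, 1 and 5 reads in Angus from deepest to shallowest and 0 in Luxi, with 91.0% in the deepest library, the same share as IL17RB. Its log2 ratio against the Luxi limit was 1.70 without that library. An EST cluster with a match to the B cell scaffold protein BANK1 held 55, 6 and 11 reads in Angus and 2, 2 and 7 in Luxi, and its log2 ratio went from 2.76 to 1.31 without the deepest Angus library. Complement C3 held 303 or 304, 46 to 48 and 18 or 19 reads in Angus. The breeds overlapped for that cluster and for C3. The ratio of C3 was 2.20-fold in the authors' means, and without the deepest Angus library its log2 ratio of Angus over Luxi turned to between -0.74 and -0.72. LOC786033 and IFITM1, in contrast, were highest in the middle and the shallowest Angus library. So was the immune gene NOD2 in the shallowest one, with 53.9% to 54.7% of its Angus reads, and its breeds did not overlap. Among the 72 listed genes higher in Angus for which the highest library was determined, it was the deepest for 52.8%. Over 2/3 of the Angus reads lay in 1 library for 31.2% of the 80 listed genes higher in Angus and determined. The part of immune cells or of this library in the values of IL17RB and SKAP1 was not tested.

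**Figure D5:**
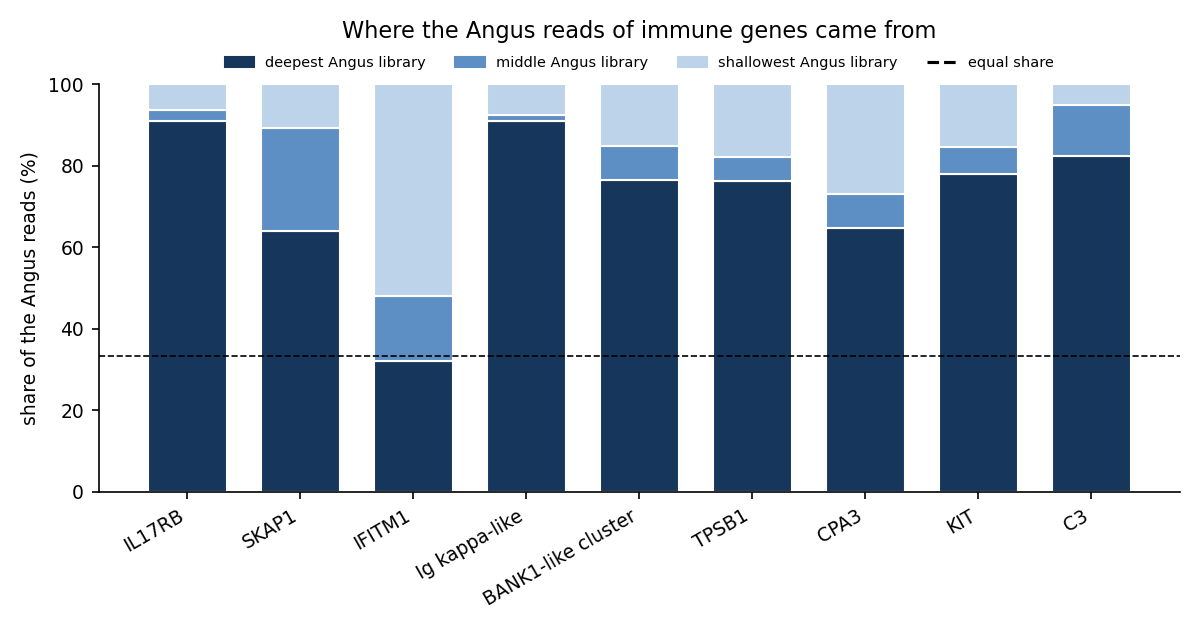
Share of the Angus reads, in percent, that came from each Angus library for the 3 members higher in Angus and 6 other listed immune genes (stacked bars, midpoint where a few splits are possible). The 6 others were picked among genes highest in the deepest library. Of 13 immune genes higher in Angus that were counted, members included, 9 were highest in the deepest library. The middle was highest for 1 and the shallowest for 1, with 2 not determined. Over the 72 listed genes higher in Angus and determined, 52.8% were highest in the deepest library. NOD2 (highest in the shallowest library), IGDCC4 (in the deepest) and NFIL3 (not determined), all higher in Angus, were not among the 13. LOC786033, with 91.4% in the middle library, is not shown. The dashed line marks equal shares. The deepest library holds 91.0% for IL17RB and for the immunoglobulin kappa-like gene, 64.0% for SKAP1 and 32.0% for IFITM1.

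In Luxi the middle library was highest for ULBP15 and for the class I cluster at 0 in Angus. For BOLA-DQA3 and IFI47 it was the middle or the shallowest one, depending on the split, and in no split the deepest. How often each Luxi library was highest over all listed genes was not worked out. Among other genes at 0 in Angus, SULT1C4 and CDH22 were highest in the middle Luxi library, and GSTA3 and DLK1 in the deepest. The immune gene PTX3, higher in Luxi and above 0 in both breeds, was highest in the deepest Luxi library with 91.4% of its Luxi reads. Its breeds overlapped, and its direction turned with 1 library left out. LOC618409, similar to interferon regulatory factor 10, a transcription factor of interferon responses, had authors' means of 7.19 RPKM for Luxi against 2.75 for Angus. Its Angus libraries held 23, 19 and 26 reads, and its middle Luxi library was the highest in Luxi with 79 to 153 reads. Without that library its log2 ratio (Angus over Luxi) ran from -1.19 to 0.44 over the splits, so its direction there was not determined. CISH, an inhibitor of cytokine receptor signalling, was 4.95-fold higher in Angus at 77.2 against 15.6 RPKM, the shallowest Angus library giving 44.3% to 71.2% of the reads. Without that library the log2 ratio of CISH was 1.04 to 2.03. It was the only listed gene of 5 cytokine signal inhibitors, where 0.994% of all genes tested are listed.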

How the data were processed

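The analysis used 1 deposited table of 232 genes that passed the authors' filter. Genes outside it were not analysed here. For each breed the authors deposited the mean over 3 libraries of raw read counts and of RPKM, per the file headers and the values. An RPKM of 0.001 stands where the count is 0. Per the file headers, the authors also deposited a log2 ratio (Luxi divided by Angus), a p-value and an FDR. The sources used here give no aligner, gene set, build, counting rule or test. Per the labels' protocols, RNA was extracted with Trizol and sequenced on a HiSeq2000.

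Reads per library were recovered as whole numbers that meet both deposited means to 6 significant digits. One set of depths was found in each breed, known to within 3 reads, and all splits at these depths were carried forward. On 6 simulated tables the depths came within 10 reads in 5, and in the sixth several sets remained. The true reads were among the splits of all 1198 genes checked there, and 262 of 262 single splits were true. The number of genes tested is that at which FDR, p and rank agree for 40 genes. The p was recomputed with the Audic-Claverie test on truncated mean counts, which met 108 of 122 deposited p-values above 1e-09 to 3 digits. Candidates from 23313 to 23374 kept every rank within 0.25 of a whole number, and 23345 came closest. In 2 simulated tables the true number was found. That test takes no account of the spread between animals, so no p-value is used here. With 3 libraries a breed, an exact permutation test could not go below 0.10.

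The ratio of each member was recomputed with other pseudocounts, counts over depth, the median library and each library left out. Named genes were the members, listed genes of 14 lists of immune, endothelial and muscle genes or with an immune description, and the nearest genes in ratio or reads. NOD2 and PTX3, which no list held, were named in addition. Members and lists were chosen with earlier results of these data known. Whether the 3 animals of a breed differ in origin is not given, and n counts libraries. Python 3.11.15, numpy 2.4.6, scipy 1.17.1, pandas 2.3.3, numba 0.67.0 and matplotlib 3.10.9 were used.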

Additional observations from a re-analysis of the deposited data

How the results depend on the processing

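No paired analysis was possible because the labels pair no Angus animal with a Luxi animal, and no recovered library can be tied to an animal. Every member kept its direction under the alternatives that were run. With 0 left as 0.001 RPKM, as deposited, the log2 ratio of Angus over Luxi was -13.90 for BOLA-DQA3, -12.18 for ULBP15, -12.68 for IFI47 and 11.23 for IFITM1, values set by the replacement. With a pseudocount of 1 RPKM the ratios moved toward 0, to -4.03, -2.50, -2.92 and 1.76 for the same genes and to 1.74 for IL17RB and 1.45 for SKAP1, and with 0.1 RPKM that of BOLA-DQA3 was -7.27. The median library gave -7.18 to -5.38 for BOLA-DQA3 over its splits and 1.92 for IL17RB, against 4.02 from the means. With 1 library left out the ratios ran from -7.38 to -4.70 for BOLA-DQA3, -6.54 to -5.18 for IFI47, -4.64 to -3.22 for ULBP15, 3.55 to 4.49 for IFITM1, 1.20 to 4.68 for IL17RB and 1.85 to 3.12 for SKAP1. The lowest value of IL17RB and of SKAP1 was without the deepest Angus library. Depth limits the genes at 0, whose ratios are bounds set by 3 reads.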
